A study of Mus musculus with 9 samples.

Results

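The genes described here are 45 genes of DNA replication, deoxynucleotide supply and replication-coupled repair, listed by name and read as a measure of how far macrophages were in S phase. The list was drawn up by function, with earlier results of these data known, and was matched by symbol through GENCODE M21 to 45 of the 55536 gene IDs in the count table. All 45 passed the filter on low counts, among 13815 genes tested. They cover origin licensing (4 genes), the MCM2-7 helicase (6), helicase activation (6), the replicative polymerases and primase (9), the sliding clamp and its loader (6), the single-strand binding protein RPA (3), Okazaki fragment maturation (2), deoxynucleotide supply (4), chromatin assembly and methylation maintenance (3) and homologous recombination (2).

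The libraries are mRNA sequencing of bone marrow-derived macrophages (BMDM), the cells that grow out of mouse marrow under the growth factor M-CSF. The marrow came from male mice 6 to 12 weeks old, was kept in DMEM with fetal bovine serum and received M-CSF at 25 ng/mL over 6 days. The recipient macrophages of all 3 groups carried the genotype given as WT. One group received exosomes, small vesicles shed by cells, from ApoE-deficient BMDM (EKO-BMDM-exo), one received exosomes from wild-type BMDM (WT-BMDM-exo), both at 2e+09 particles/mL, and the control group received PBS, each for 18 hours. Each group had 3 libraries, called biological replicates in the series' design text. No source used here says whether they came from separate mice or separate exosome preparations, so a p-value here reflects only how these libraries scatter. The comparison of both exosome groups asks about the ApoE genotype of the donor cells, which cannot be told apart from the exosome preparation if each group received a single one, and the comparisons with PBS ask what exosomes of either kind do to the recipient.

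Replication begins in G1, when the origin recognition complex, Cdc6 and Cdt1 load the ring of Mcm2 to Mcm7 onto DNA. In S phase Cdc45 and the GINS complex turn that ring into the moving helicase, the polymerases copy both strands while held by the Pcna clamp, and ribonucleotide reductase, thymidylate synthase and thymidine kinase supply the deoxynucleotides. Most of these genes are transcribed under E2F factors, which are released from Rb proteins when M-CSF drives cyclin D and its kinases, and macrophages leave the cell cycle as they mature.

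Promoter windows from 250 bases before to 50 bases after the RefSeq start site (GRCm38.p6) were matched for 38 of the 45 genes, and are shown first because a shared E2F motif is the best-known common feature of replication genes. Mcm4, Gins1, Gins2, Gins4, Prim2, Pole and Rfc2 were not matched. The E2F motif was searched on both strands as TTTCCCGC, TTTCGCGC, TTTGCCGC or TTTGGCGC. It occurred in 16 of the 38 windows (42.1%, Wilson 95% interval 27.9% to 57.8%), in 473 of 9971 windows of genes tested (4.74%) and in 704 of all 27025 genes with a window (2.61%). Of 35 mitosis genes, the next module of the cell cycle, 3 held it (8.57%). In the bases before the start site alone it occurred in 10 of the 38 windows (26.3%) and in 3.96% of those of genes tested. The stretches below show the motif, in capitals, in 4 of the windows that hold it, those of 3 MCM genes and of Brca2. They were picked among genes described below that have a match, and do not stand for the others: Mcm2 had none. Overlapping matches on opposite strands run together, so that Mcm6 holds 3 matches, Mcm5 and Mcm3 hold 2 each and Brca2 holds 1.

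Mcm6, bases -130 to -1, chr1:128359706-128359835, minus strand: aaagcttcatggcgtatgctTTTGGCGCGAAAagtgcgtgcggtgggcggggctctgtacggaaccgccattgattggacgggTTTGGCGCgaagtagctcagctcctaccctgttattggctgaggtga
Mcm5, bases -170 to -51, chr8:75109339-75109458, plus strand: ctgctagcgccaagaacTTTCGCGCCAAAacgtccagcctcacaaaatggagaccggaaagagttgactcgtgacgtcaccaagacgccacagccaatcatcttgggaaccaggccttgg
Mcm3, bases 18 to 47 after the start, chr1:20820266-20820295, minus strand: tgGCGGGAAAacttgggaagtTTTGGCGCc
Brca2, bases -190 to -71, chr5:150522431-150522550, plus strand: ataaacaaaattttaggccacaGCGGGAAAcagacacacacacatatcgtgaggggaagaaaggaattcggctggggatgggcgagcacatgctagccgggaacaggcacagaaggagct

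Pcna, Rrm2 and Tk1, whose values carry other results below, had no match to these E2F letters in their windows. Pcna and Rrm2 hold a CCAAT box, the site bound by NF-Y, which is shown in capitals (in Pcna on the opposite strand).

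Pcna, bases -130 to -1, chr2:132253181-132253310, minus strand: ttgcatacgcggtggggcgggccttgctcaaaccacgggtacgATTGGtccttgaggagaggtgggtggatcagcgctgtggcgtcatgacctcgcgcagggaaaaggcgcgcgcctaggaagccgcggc
Rrm2, bases -130 to -1, chr12:24708124-24708253, plus strand: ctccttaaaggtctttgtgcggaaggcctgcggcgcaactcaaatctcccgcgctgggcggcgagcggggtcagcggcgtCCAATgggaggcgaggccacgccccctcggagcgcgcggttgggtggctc

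Of the other motifs searched, the CHR element differed most between the replication and the mitosis windows. The CHR element of mitosis genes (TTTGAA or TTCGAA, both strands) occurred in 18.4% of the replication windows, in 80% of the mitosis windows and in 16.5% of windows of genes tested. In the bases before the start site alone these shares were 18.4%, 42.9% and 14.7%. The CCAAT box occurred in 63.2%, 80% and 43.0% of these sets, and the GC box (GGGCGG) in 73.7%, 82.9% and 67.8%. A match is a run of letters and not a measured binding site.

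Library totals lay between 28581306 and 35929596 counts, with 17150 to 18680 genes detected. Replicate 3 of the wild-type exosome group was far from all other libraries on the first principal component (57.5, against -16.8 to 3.43), and the second component put replicate 2 of the wild-type and of the ApoE-deficient exosome group at opposite ends (-45.4 and 38). These components held 15.19% and 15.15% of the variance. Counts of calls among the 45 genes are given with and without wild-type exosome replicate 3, and some also without replicate 2 of that group. The defining macrophage markers were present in every library: the summed level of 10 markers was 23466 to 24718 CPM (counts scaled to a common library size) in PBS, 21783 to 22409 in wild-type exosomes and 21494 to 22486 in ApoE-deficient exosomes. Of these markers, 8 passed as lower in ApoE-deficient exosomes against PBS and 6 as lower and 1 as higher (Cd68) in wild-type exosomes against PBS. Over all genes tested, 2.41% passed as lower in the first comparison, and 2.18% as lower and 1.93% as higher in the second. Between the exosomes 1 marker passed, as lower with ApoE-deficient exosomes, beside 0.413% of all genes. In whole cultures, fewer cells of a type and less RNA per cell cannot be told apart.

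All of the 45 genes were expressed, at levels that spanned more than 2 orders of magnitude per exon length. Pcna, the clamp that tethers the polymerases, was the most abundant at 53.6 RPKM (CPM divided by the exon length in kilobases) over the 9 libraries. With the coding length in place of all exons it was 164 and with the longest transcript 84.7, and Pcna ranked 1 on each scale. It was followed by Mcm6 at 24.7, the licensing factor Cdt1 at 17.0, Gins4 at 16.8, Mcm3 at 15.7, the flap nuclease Fen1 at 14.1 and the clamp loader subunit Rfc1 at 12.9. Pcna and Mcm6 lay apart from their neighbours in every group, whereas Cdt1, Gins4 and Mcm3 changed order between groups. In PBS these 3 stood at 15.7 ± 0.899, 16.7 ± 0.979 and 14.4 ± 1.01 RPKM (SD, n = 3). With wild-type exosomes they stood at 18.2 ± 1.25, 16.8 ± 2.31 and 17.5 ± 0.546 RPKM. The lowest levels belonged to Cdc6 at 0.768, Tyms at 0.745, Brca2 at 0.546 and the origin recognition subunit Orc1 at 0.318 RPKM. In raw counts Pcna had 3237 to 4701 per library and Orc1 had 11 to 56, so the precision differed widely within the set. The processed pseudogene Pcna-ps2 held 8 to 19 counts per library and Tyms-ps 0 to 1.

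**Figure D1:**
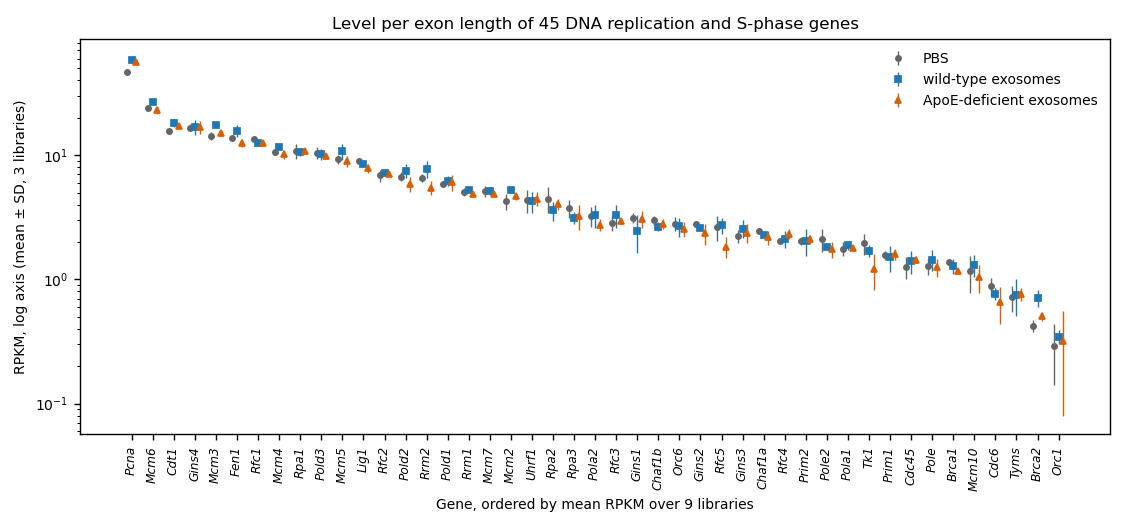
Level per exon length (RPKM, log axis) of the 45 genes, ordered by their mean over 9 libraries; points are means and bars SD of 3 libraries in PBS (grey circles), wild-type exosomes (blue squares) and ApoE-deficient exosomes (orange triangles). Pcna at 53.6 RPKM tops the order and Orc1 at 0.318 closes it, and the error bars widen towards the low end.

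Against PBS, wild-type exosomes went with higher levels of the clamp, a helicase subunit and a recombination gene. Pcna rose by 0.32, Mcm3 by 0.28 and the recombination mediator Brca2 by 0.75 on the log2 scale. These were the 3 of 45 genes with an edgeR adjusted p under 0.05, beside 4.11% of all genes tested, where 1.93% passed as higher. None of the 45 passed as lower, against 2.18% of all genes. At an unadjusted p under 0.05 there were 7 genes, all higher (Cdt1, Mcm2, Mcm3, Mcm5, Mcm6, Pcna and Brca2), against 14.0% of all genes, 6.78% higher and 7.23% lower. The libraries of both groups did not overlap for 10 genes, 8 higher and 2 lower, against 17.5% of all genes (8.59% and 8.87%). The median log2 fold change of the 45 genes was 0.05 and that of all genes tested -0.003, and 27 of 45 values were positive, against 49.2% of all genes. Without wild-type exosome replicate 3, 2 of the 45 genes passed (Pcna and Mcm3), 7 reached an unadjusted p under 0.05, all higher, and 28 values were positive. Without wild-type exosome replicate 2, 3 of the 45 genes passed.

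Against the same PBS libraries, ApoE-deficient exosomes went with higher Pcna and lower Tk1, the thymidine kinase of S phase. Pcna rose by 0.27 and Tk1 fell by 0.69 on the log2 scale, and these were the 2 of 45 genes past the threshold, beside 4.23% of all genes (1.82% higher and 2.41% lower). At an unadjusted p under 0.05 there were 4 genes: Pcna higher, and Rfc5, Lig1 and Tk1 lower, against 13.1% of all genes (6.51% higher and 6.56% lower). Without overlap there were 9 genes, 3 higher and 6 lower, against 18.3% of all genes (9.06% and 9.24%). The median log2 fold change was -0.06 for the 45 genes and -0.001 for all genes, with 18 of 45 values positive against 49.8% of all genes. Both comparisons share the PBS libraries, so their values are set side by side here and not read as independent.

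Between the exosomes, the difference of a single replication gene passed, and most estimates were lower with ApoE-deficient than with wild-type exosomes. Mcm6 fell by 0.21 on the log2 scale (edgeR adjusted p = 0.0449) and was the 1 gene of 45 past the threshold, beside 0.695% of all genes (0.282% higher and 0.413% lower). At an unadjusted p under 0.05 there were 10 genes, all lower: Mcm3, Mcm4, Mcm5, Mcm6, Pold2, Rfc5, Fen1, Rrm2, Tk1 and Brca2. Over all genes tested, that unadjusted threshold was passed by 8.15%, of which 4.11% were higher and 4.04% lower. Of the 45 values 34 were negative, against 49.9% of all genes, and the median log2 fold change was -0.09 against 0.00 over all genes. The libraries of both groups did not overlap for 9 genes, all lower with ApoE-deficient exosomes, against 14.0% of all genes (7.04% higher and 7.01% lower). Without wild-type exosome replicate 3 none of the 45 passed, 6 reached an unadjusted p under 0.05, all lower, and 36 values were negative. None passed without wild-type exosome replicate 2. In the F test for a difference of any kind between the groups, 5 of the 45 passed (Pcna, Mcm3, Mcm6, Rrm2 and Brca2), beside 5.28% of all genes, and 11 reached an unadjusted p under 0.05, beside 14.8%. Without wild-type exosome replicate 3 the F test passed 2 of the 45, Pcna and Mcm3, and Mcm6, Rrm2 and Brca2 were lost (adjusted p 0.175, 0.228 and 0.229). It passed 3 without ApoE-deficient replicate 1 or without PBS replicate 1.

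**Figure D2:**
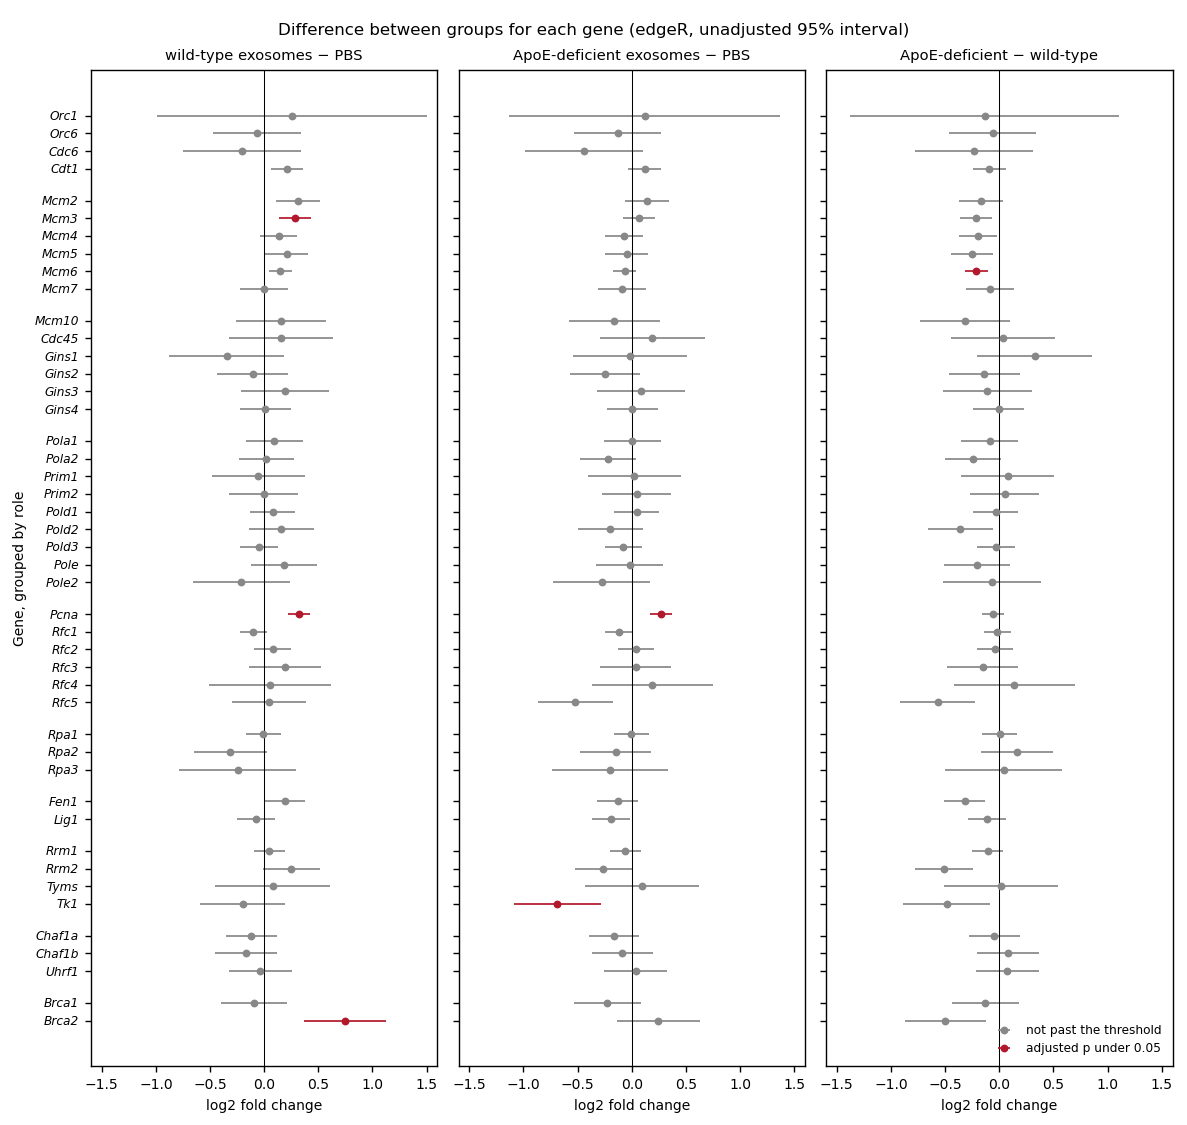
Difference between groups (log2 fold change with its unadjusted 95% interval, edgeR) for the 45 genes, grouped by role from origin licensing at the top to homologous recombination at the bottom; red marks an adjusted p under 0.05. Pcna, Mcm3 and Brca2 are red for wild-type exosomes against PBS, Pcna and Tk1 for ApoE-deficient exosomes against PBS, and Mcm6 between the exosomes, where 34 of 45 points lie left of 0.

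Origin licensing was represented by Orc1 and Orc6 of the origin recognition complex, the loader Cdc6 and its partner Cdt1. Cdt1 (chromosome 8, 122568015 to 122573554, GRCm38) had 49.2, 46.7 and 52.3 CPM in the PBS libraries, 52.7, 59.1 and 59.9 with wild-type exosomes, and 52.0, 53.8 and 55.5 with ApoE-deficient exosomes. All of its wild-type exosome libraries lay above PBS, the nearest by less than 1 CPM, and the log2 difference of 0.21 had an edgeR adjusted p of 0.114. The 3 other licensing genes were low: Orc1 lay between 0.308 and 1.96 CPM, Cdc6 between 2.41 and 5.23 and Orc6 between 5.40 and 7.93 over all libraries. Orc1 had the widest spread of the set, with a biological coefficient of variation of 48.1%, and its interval for wild-type exosomes against PBS ran from -0.99 to 1.5 on the log2 scale. No licensing gene passed the threshold in any comparison, with edgeR, DESeq2 or limma-voom, and Cdt1 with wild-type exosomes was the 1 case of an unadjusted p under 0.05.

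The MCM2-7 helicase, whose 6 subunits form the ring that opens the double strand, held 2 of the genes called in some comparison, Mcm3 and Mcm6. Mcm3 (ENSMUSG00000041859, chromosome 1, 20802968 to 20820312) had 52.3, 51.4 and 58.3 CPM in PBS, 67.8, 65.7 and 63.7 with wild-type exosomes, and 60.5, 55.2 and 54.1 with ApoE-deficient exosomes. Its 3 wild-type exosome libraries stood above all 6 others. The rise over PBS was 0.28 ± 0.071 on the log2 scale (SE, n = 3 libraries a group, edgeR adjusted p = 0.0130), and the difference between the exosomes was -0.22 (adjusted p = 0.238). The call against PBS was lost without the PBS replicate 1 (adjusted p = 0.0680), PBS replicate 2 (0.0858) or wild-type exosome replicate 1 library (0.0680), and was kept without wild-type exosome replicate 3 (0.0223).

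Mcm6 (ENSMUSG00000026355, chromosome 1, 128331590 to 128359664) had 115.0, 112.0 and 111.4 CPM in PBS, 124.5, 120.4 and 129.96 with wild-type exosomes, and 100.6, 107.5 and 115.3 with ApoE-deficient exosomes. The wild-type exosome libraries were the highest of the 9, and those of ApoE-deficient exosomes overlapped PBS. The difference between the exosomes was -0.21 ± 0.053 on the log2 scale (edgeR adjusted p = 0.0449), a call close to the threshold that was lost in 6 of the 9 fits that left out a library. Its adjusted p was then 0.422 without ApoE-deficient replicate 1, 0.203 without ApoE-deficient replicate 2, 0.0543 without PBS replicate 2, and 0.0965, 0.0669 and 0.291 without wild-type replicates 1, 2 and 3. The difference remained negative in all 9 of these fits, between -0.17 and -0.27.

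Mcm2 (chromosome 6, 88883474 to 88898780) had 24.8, 33.2 and 30.5 CPM in PBS, 34.1, 36.9 and 38.8 with wild-type exosomes, and 32.7, 34.7 and 30.3 with ApoE-deficient exosomes. The wild-type exosome libraries stood above PBS, with a log2 difference of 0.31 ± 0.099 and an edgeR adjusted p of 0.0718. Mcm5 (chromosome 8, 75109569 to 75128439) had 35.0, 35.9 and 40.3 CPM in PBS, 35.8, 45.04 and 47.7 with wild-type exosomes, and 32.0, 39.2 and 36.7 with ApoE-deficient exosomes. Here replicate 1 of wild-type exosomes lay among the PBS libraries, and the difference of 0.21 over PBS had an adjusted p of 0.319. That difference was 0.13 (adjusted p = 0.734) without wild-type exosome replicate 3. Mcm4 lay between 40.2 and 43.1 CPM with wild-type exosomes, 35.6 and 40.05 in PBS, and 32.8 and 38.8 with ApoE-deficient exosomes. Mcm7 lay between 20.3 and 24.7 CPM over all libraries with no order among the groups.

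Counted together, the 6 helicase genes had positive log2 fold changes for wild-type exosomes against PBS in 6 of 6 cases (median 0.18) and negative ones between the exosomes in 6 of 6 (median -0.21). Over all genes, 49.2% were positive and 49.9% negative in these comparisons. Of the 6, Mcm7 was all but level with PBS, at 0.000348 with wild-type exosomes (edgeR unadjusted p = 0.997). Without wild-type exosome replicate 3 the counts were the same and the medians 0.13 and -0.18. Their values for ApoE-deficient exosomes against PBS were 2 positive and 4 negative, with a median of -0.06. Their summed level was 287, 297 and 300 CPM in PBS, 327, 333 and 344 with wild-type exosomes, and 285, 291 and 297 with ApoE-deficient exosomes. The wild-type exosome libraries were thus the 3 highest, including replicate 1, which stood apart on neither component. Replicate 2 lay at the far end of the second component (-45.4). The differences between the exosomes share the wild-type libraries with those against PBS, so these 2 counts are not independent of each other.

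**Figure D3:**
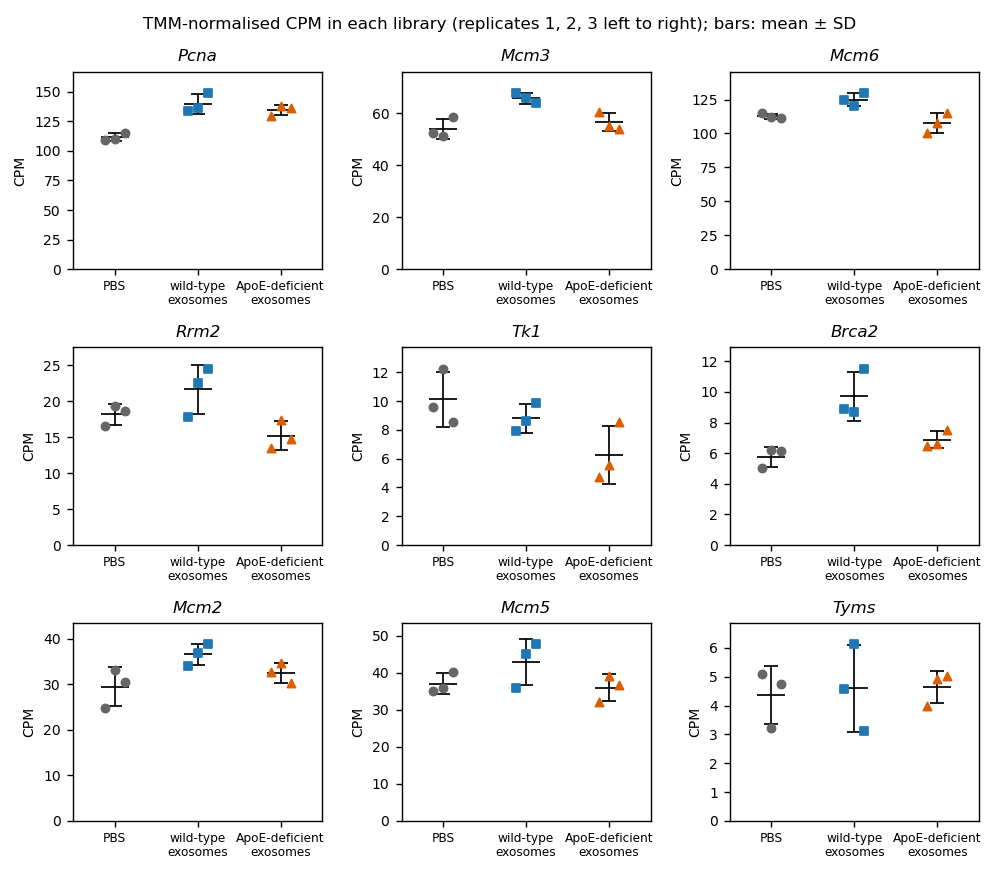
TMM-normalised CPM of 9 genes in every library (PBS grey circles, wild-type exosomes blue squares, ApoE-deficient exosomes orange triangles; replicates 1, 2 and 3 from left to right; bars are mean ± SD of 3 libraries; each axis starts at 0). Pcna is above PBS in all 6 exosome libraries, while Mcm3, Mcm6 and Brca2 are highest in the 3 wild-type exosome libraries.

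Helicase activation was measured through Mcm10, Cdc45 and the GINS subunits Gins1 to Gins4. None of these 6 genes passed the threshold in any comparison with edgeR, DESeq2 or limma-voom, and with edgeR none reached an unadjusted p of 0.05. Except for Gins4, at 19.4 to 25.6 CPM, they lay between 2.29 and 12.4 CPM. Gins2 had the lowest F test p of the group. Its libraries read 10.7, 11.4 and 12.0 CPM in PBS, 10.5, 11.0 and 10.3 with wild-type exosomes, and 7.50, 11.1 and 10.3 with ApoE-deficient exosomes, and these ranges overlapped. Exons of other genes cover 67.3% of the Gins2 exon length and, as the strand setting of the counting is not given in the sources used here, its reads cannot be assigned with certainty.

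The polymerase and primase genes comprised Pola1, Pola2, Prim1 and Prim2 of the priming complex, Pold1, Pold2 and Pold3 of the lagging-strand polymerase delta, and Pole and Pole2 of the leading-strand polymerase epsilon. None of the 9 passed the threshold in any comparison with edgeR, DESeq2 or limma-voom, and 1 reached an unadjusted p of 0.05. This was Pold2, the small subunit of polymerase delta. It had 13.0, 11.6 and 13.7 CPM in PBS, 13.6, 12.8 and 16.2 with wild-type exosomes, and 9.60, 12.8 and 10.9 with ApoE-deficient exosomes. Its libraries did not overlap between the exosomes, the nearest values differing by less than 0.1 CPM, and the difference of -0.36 had an edgeR adjusted p of 0.451. The 8 others had log2 differences between the exosomes from -0.24 (Pola2) to 0.08 (Prim1).

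Pcna (ENSMUSG00000027342, chromosome 2, 132249162 to 132253314) was the 1 gene of the set that passed for both kinds of exosomes. It had 109.3, 110.0 and 115.3 CPM in PBS, 134.0, 136.1 and 149.1 with wild-type exosomes, and 129.4, 137.8 and 136.1 with ApoE-deficient exosomes. All 6 exosome libraries lay above all 3 PBS libraries, and the ranges of both exosome groups overlapped each other. The rise was 0.32 ± 0.050 on the log2 scale with wild-type exosomes (1.25-fold, edgeR adjusted p = 3.54e-05) and 0.27 ± 0.050 with ApoE-deficient exosomes (1.21-fold, adjusted p = 0.000457). The difference between the exosomes was -0.06, with a 95% interval from -0.16 to 0.05. Without wild-type exosome replicate 3, the highest library, the rise with wild-type exosomes was 0.28 (adjusted p = 0.00132).

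No gene of the clamp loader, a ring of Rfc1 to Rfc5 that opens Pcna and closes it around DNA, passed the threshold with edgeR. Rfc5 had 15.5, 10.8 and 10.7 CPM in PBS, 12.6, 10.8 and 14.7 with wild-type exosomes, and 7.81, 7.51 and 10.4 with ApoE-deficient exosomes. All 3 ApoE-deficient libraries were the lowest of the 9. The differences were -0.52 against PBS (edgeR adjusted p = 0.0864) and -0.57 against wild-type exosomes (adjusted p = 0.154), neither past the threshold. Rfc1, Rfc2, Rfc3 and Rfc4 had log2 fold changes between -0.12 and 0.19 in the comparisons with PBS and did not pass.

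RPA, which coats the exposed single strands, is made of Rpa1, Rpa2 and Rpa3. None passed the threshold with edgeR, DESeq2 or limma-voom, and none reached an unadjusted p of 0.05 with edgeR. Rpa2 had 12.1, 11.0 and 16.9 CPM in PBS, 12.9, 9.69 and 9.63 with wild-type exosomes, and 13.5, 11.3 and 11.4 with ApoE-deficient exosomes, with PBS replicate 3 the highest. Rpa1 lay between 50.6 and 65.2 CPM and Rpa3 between 2.91 and 4.73 over all libraries, with overlapping groups.

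Okazaki fragments are trimmed by the nuclease Fen1 and joined by the ligase Lig1. Fen1 had 33.9, 33.1 and 33.4 CPM in PBS, 38.0, 33.9 and 42.4 with wild-type exosomes, and 32.8, 30.7 and 28.1 with ApoE-deficient exosomes. The groups did not overlap, in the order wild-type exosomes, PBS, ApoE-deficient exosomes, with the nearest libraries of wild-type exosomes and PBS less than 0.1 CPM apart. The difference between the exosomes was -0.32 (edgeR adjusted p = 0.136) and that of wild-type exosomes against PBS 0.19 (adjusted p = 0.358). Both shrank without wild-type exosome replicate 3, to -0.23 (adjusted p = 0.557) and 0.11 (adjusted p = 0.767). Exons of other genes cover 84.2% of the Fen1 exon length, so part of its reads may belong to a neighbour. Lig1 had 37.3 to 39.0 CPM in PBS, 35.3 to 37.0 with wild-type exosomes and 31.2 to 36.8 with ApoE-deficient exosomes, with a difference of -0.19 for ApoE-deficient exosomes against PBS (adjusted p = 0.317).

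Deoxynucleotide supply held Tk1, called against PBS, and Rrm2, called in the F test. Rrm2 (ENSMUSG00000020649, chromosome 12, 24708241 to 24714146) encodes the small subunit of ribonucleotide reductase, which is made in S phase. It had 16.5, 19.4 and 18.7 CPM in PBS, 17.8, 22.6 and 24.5 with wild-type exosomes, and 13.5, 17.4 and 14.7 with ApoE-deficient exosomes. The exosome groups did not overlap, and PBS lay between and across them. Rrm2 passed the F test (edgeR adjusted p = 0.0367), and the difference between the exosomes was -0.51 ± 0.13 on the log2 scale with an adjusted p of 0.0569. That difference passed with DESeq2 (adjusted p = 0.0403), without a filter (0.0130) and with only the 2 exosome groups in the fit (0.0470), and had an adjusted p of 0.357 without wild-type exosome replicate 3, where the difference was -0.41. The F test was lost without ApoE-deficient replicate 1 (0.198) or 3 (0.132) or wild-type replicate 2 (0.134) or 3 (0.228). Rrm1, the large subunit, lay between 52.9 and 60.2 CPM and did not pass in any comparison.

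Tk1 (ENSMUSG00000025574, chromosome 11, 117815526 to 117826092) salvages thymidine. It had 9.55, 12.2 and 8.55 CPM in PBS, 7.92, 8.61 and 9.89 with wild-type exosomes, and 4.73, 5.56 and 8.54 with ApoE-deficient exosomes. ApoE-deficient replicate 3 all but reached the lowest PBS library, and the other 2 lay well below. The fall against PBS was -0.69 ± 0.20 on the log2 scale (edgeR adjusted p = 0.0362). The call was lost without ApoE-deficient replicate 1 (adjusted p = 0.284) or 2 (0.211), or without PBS replicate 1 (0.0640) or 2 (0.290). Against wild-type exosomes the difference was -0.49 (adjusted p = 0.437).

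Tyms, thymidylate synthase, was among the lowest genes of the set and showed no order among the groups. It had 5.10, 3.22 and 4.76 CPM in PBS, 4.57, 6.12 and 3.10 with wild-type exosomes, and 4.001, 4.93 and 5.01 with ApoE-deficient exosomes. Its interval for ApoE-deficient against wild-type exosomes ran from -0.51 to 0.54 on the log2 scale, so that a 1.4-fold difference in either direction lay within it.

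Chaf1a and Chaf1b, subunits of the factor that deposits histones behind the fork, and Uhrf1, which guides maintenance methylation, had log2 fold changes between -0.17 and 0.08 in the 3 comparisons. None passed with edgeR, DESeq2 or limma-voom, and none reached an unadjusted edgeR p of 0.05. Chaf1a had 20.7, 21.3 and 23.2 CPM in PBS, 19.9, 19.9 and 20.3 with wild-type exosomes, and 21.1, 16.5 and 20.5 with ApoE-deficient exosomes. Its wild-type exosome libraries all lay below PBS, with a difference of -0.12 (edgeR adjusted p = 0.756). Exons of other genes cover 52.5% of its exon length.

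Brca2 (ENSMUSG00000041147, chromosome 5, 150522630 to 150570329), which acts in homologous recombination, had the largest called difference of the 45 genes. It had 5.03, 6.20 and 6.12 CPM in PBS, 8.90, 8.71 and 11.5 with wild-type exosomes, and 6.49, 6.60 and 7.50 with ApoE-deficient exosomes. The 3 groups did not overlap, with ApoE-deficient exosomes between the others. The rise with wild-type exosomes was 0.75 ± 0.19 on the log2 scale (1.68-fold, edgeR adjusted p = 0.0124). It rested in part on the library that stood apart on the first component. Without that library, wild-type replicate 3, the rise was 0.61 with an edgeR adjusted p of 0.122. Without PBS replicate 1 the adjusted p was 0.0890. DESeq2 gave Brca2 no adjusted p in this comparison. The differences for ApoE-deficient exosomes were 0.25 against PBS (adjusted p = 0.680) and -0.50 against wild-type exosomes (adjusted p = 0.344). Brca1 lay between 9.30 and 12.3 CPM and did not pass in any comparison.

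**Figure D4:**
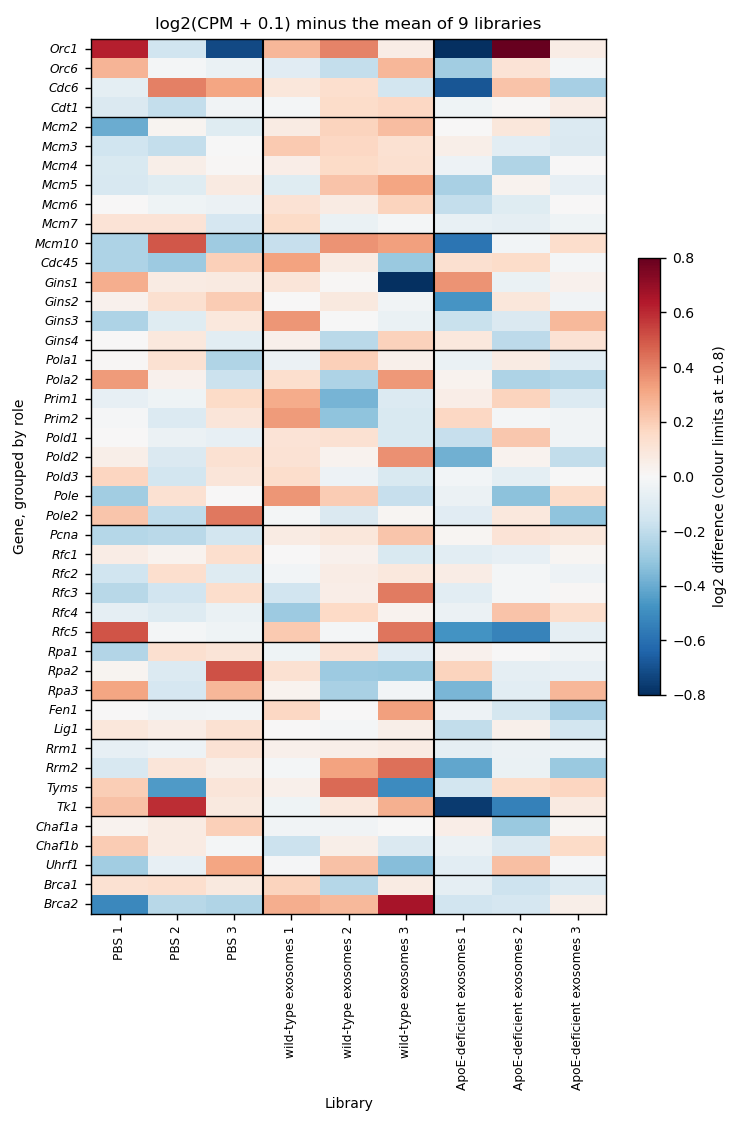
Level of each of the 45 genes in each library as log2(CPM + 0.1) minus the gene's mean over 9 libraries (red above, blue below, colour limits at 0.8 either way); black lines separate groups and roles. The MCM and Pcna rows are mostly red in the 3 wild-type exosome columns, and several rows are darkest blue in replicate 1 of ApoE-deficient exosomes.

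Summed over the 45 genes, the level was 1133, 1152 and 1185 CPM in PBS, 1226, 1228 and 1260 with wild-type exosomes, and 1115, 1146 and 1156 with ApoE-deficient exosomes. The wild-type exosome libraries were the highest, and the other groups overlapped. Without Pcna the sums were 1023 to 1069 CPM in PBS, 1092 to 1111 with wild-type exosomes and 985 to 1020 with ApoE-deficient exosomes. On that reckoning the 3 groups did not overlap, but the highest ApoE-deficient library (1020) lay close below the lowest PBS library (1023). Pcna, left out here, was the 1 gene of the 45 that passed as higher with ApoE-deficient exosomes against PBS. The sum is carried by the abundant genes, and the set took 0.111% to 0.125% of a library's counts.

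Giving each gene equal weight, the mean centred log2 CPM was -0.007 to 0.033 in PBS, 0.047 to 0.072 with wild-type exosomes and -0.154 to -0.019 with ApoE-deficient exosomes. The lowest value of the 9 was replicate 1 of ApoE-deficient exosomes, at -0.154, while the other libraries of that group lay at -0.019 and -0.020. Without that library the median log2 fold change of the 45 genes was -0.03 in place of -0.06 against PBS and -0.07 in place of -0.09 against wild-type exosomes.

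**Figure D5:**
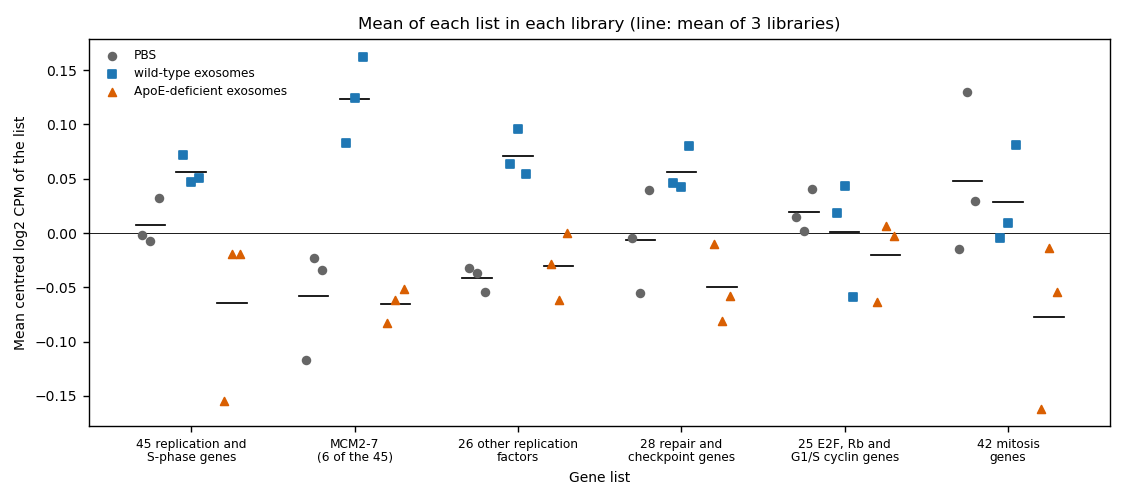
Mean centred log2 CPM of the 45 genes, of the 6 MCM2-7 genes among them and of 4 further lists, in each library (PBS grey circles, wild-type exosomes blue squares, ApoE-deficient exosomes orange triangles; lines are means of 3 libraries; points are spread sideways for visibility). The wild-type exosome points of the 45 genes lie between 0.047 and 0.072, above both other groups, while the mitosis list overlaps among the groups.

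Between libraries of the same group the 45 genes varied little in common. After removing group means, the median residual SD of a gene was 0.170 on the log2 scale, against 0.151 for all genes tested and 0.157 for 42 mitosis genes. It was 0.0994 for the MCM2-7 genes and 0.215 for the polymerases. The median correlation of residuals over all pairs of the 45 genes was 0.04 across the 9 libraries, -0.02 among the MCM2-7 genes, 0.12 among the mitosis genes and close to 0 among all genes. It was 0.11 among the polymerases and primase, 0.04 for the clamp and its loader and 0.03 for helicase activation. Leaving out 1 library at a time gave -0.15 to 0.01 among the MCM2-7 genes and 0.07 to 0.16 among the mitosis genes. These values are a description over 9 libraries that share depth and scaling.

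Neighbouring genes of the pathway, none of them among the 45, were read as lists. No gene of 26 other replication factors passed in any comparison, with edgeR, DESeq2 or limma-voom, and 1, 1 and 2 reached an unadjusted edgeR p of 0.05 for ApoE-deficient exosomes, wild-type exosomes and the difference of both, beside 13.1%, 14.0% and 8.15% of all genes. Their median log2 fold change was 0.10 for wild-type exosomes against PBS (18 of 26 positive), 0.00 for ApoE-deficient exosomes against PBS (13 of 26) and -0.07 between the exosomes (6 of 26). The lowest p belonged to Pole4, a polymerase epsilon subunit, at 14.4 ± 2.22 CPM in PBS, 18.9 ± 0.0901 with wild-type exosomes (edgeR adjusted p = 0.0838 against PBS) and 15.9 ± 0.806 with ApoE-deficient exosomes.

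Of 17 other genes of nucleotide supply, Dck and Samhd1 fell against PBS with both kinds of exosomes, and Atic rose with wild-type exosomes. Over all genes, 2.41% passed as lower with ApoE-deficient exosomes, and 2.18% as lower and 1.93% as higher with wild-type exosomes. At an unadjusted edgeR p under 0.05 there were 5 of the 17 in each comparison with PBS. The share of all genes was 13.1% with ApoE-deficient and 14.0% with wild-type exosomes. Dck, the kinase that salvages deoxycytidine, had 62.1, 60.0 and 54.9 CPM in PBS, 48.2, 47.7 and 44.2 with wild-type exosomes, and 47.96, 41.9 and 43.2 with ApoE-deficient exosomes. Every exosome library lay below every PBS library, with changes of -0.34 (edgeR adjusted p = 0.00532) and -0.41 (adjusted p = 0.00049). Samhd1, which degrades deoxynucleotides and keeps them low in resting macrophages, was 376 ± 9.18 CPM in PBS, 332 ± 12.0 with wild-type exosomes (adjusted p = 0.00164) and 332 ± 10.1 with ApoE-deficient exosomes (adjusted p = 0.00135), a change of -0.18 in each. Atic, a purine synthesis enzyme, was 47.4 ± 2.69 CPM in PBS, 58.1 ± 3.20 with wild-type exosomes (0.29, adjusted p = 0.0168) and 53.2 ± 3.90 with ApoE-deficient exosomes (0.17, adjusted p = 0.310). Between the exosomes none of the 17 passed with edgeR, DESeq2 or limma-voom, and 2 reached an unadjusted edgeR p of 0.05, beside 8.15% of all genes.

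Of 28 genes of replication-coupled repair and checkpoint, 5 reached an unadjusted edgeR p of 0.05 in each comparison with PBS. They were 2 higher and 3 lower with ApoE-deficient exosomes, and 4 higher and 1 lower with wild-type exosomes. The shares of all genes were 13.1% and 14.0%. With edgeR 1 gene passed with ApoE-deficient exosomes, beside 4.23% of all genes (1.82% higher and 2.41% lower). This was Dnmt1, the maintenance methyltransferase, which with DESeq2 passed also with wild-type exosomes. It was 259 ± 6.38 CPM in PBS, 287 ± 2.66 with ApoE-deficient exosomes (0.15, edgeR adjusted p = 0.00872) and 281 ± 2.67 with wild-type exosomes (0.12, adjusted p = 0.0616). Fancd2, which marks stalled forks, was 6.82 ± 0.889 CPM in PBS, 4.45 ± 0.338 with wild-type exosomes and 4.17 ± 0.514 with ApoE-deficient exosomes, with edgeR adjusted p of 0.127 and 0.0635 against PBS, and the latter difference passed with DESeq2.

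Among 25 genes of the E2F, Rb and G1/S cyclin circuit, 2 reached an unadjusted edgeR p of 0.05 with ApoE-deficient exosomes against PBS. They were 1 higher and 1 lower, beside 13.1% of all genes. With edgeR 1 of the 25 passed in that comparison, beside 4.23% of all genes (2.41% lower). This was E2f8, a repressor E2F made in S phase, which fell with ApoE-deficient exosomes. It had 16.8, 20.1 and 17.1 CPM in PBS, 14.0, 16.9 and 16.5 with wild-type exosomes, and 10.5, 12.8 and 12.8 with ApoE-deficient exosomes, where it was lowest, at -0.58 against PBS (edgeR adjusted p = 0.00563) and -0.39 against wild-type exosomes (adjusted p = 0.280). Ccnd1, the cyclin that M-CSF induces in G1, was 109 ± 12.0 CPM in PBS, 130 ± 12.5 with wild-type exosomes (0.24, adjusted p = 0.0688) and 111 ± 8.23 with ApoE-deficient exosomes. With wild-type exosomes no gene of this list passed in edgeR, where 4 reached an unadjusted p of 0.05, beside 14.0% of all genes. For these exosomes limma-voom passed Ccnd1 and DESeq2 passed Ccnd1 and E2f2. Between the exosomes none passed with any of these tools, and 2 reached an unadjusted edgeR p of 0.05, beside 8.15% of all genes.

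Of 20 CDK inhibitors and quiescence genes, 3 fell with ApoE-deficient exosomes and 1 with wild-type exosomes, and none passed as higher. Over all genes, 2.41% and 2.18% passed as lower in these comparisons. Cdkn1a, the p21 inhibitor, was 99.7 ± 3.34 CPM in PBS, 80.4 ± 4.54 with ApoE-deficient exosomes (-0.31, edgeR adjusted p = 0.00154) and 88.0 ± 8.95 with wild-type exosomes (-0.18, adjusted p = 0.116). Maf, which holds macrophages out of the cycle, was 448 ± 3.78 CPM in PBS and fell to 379 ± 3.80 with ApoE-deficient exosomes (-0.24, adjusted p = 2.95e-06) and to 400 ± 10.3 with wild-type exosomes (-0.16, adjusted p = 0.00125).

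The mitosis genes, which follow replication in the cycle, gave no call in any comparison with edgeR, DESeq2 or limma-voom. An unadjusted edgeR p of 0.05 was reached by 5 of 42 with ApoE-deficient exosomes, 0 with wild-type exosomes and 6 in the comparison of both. The shares of all genes were 13.1%, 14.0% and 8.15%. Their median log2 fold changes were -0.12, -0.01 and -0.12 in the same order. Of the 42 values, 34, 24 and 31 were negative in that order, and between the exosomes 49.9% of all genes were negative. Libraries did not overlap for 7 genes, all lower, with ApoE-deficient exosomes against PBS. They did not overlap for 5 lower and 2 higher genes between the exosomes, and for 1 each way with wild-type exosomes. Over all genes, 9.24% were lower without overlap and 9.06% higher with ApoE-deficient exosomes against PBS. Between the exosomes these shares were 7.01% and 7.04%, and with wild-type exosomes 8.87% and 8.59%. The lean to lower values between the exosomes was thus not confined to replication genes. Top2a, the topoisomerase that untangles replicated DNA, was 74.9 ± 4.16 CPM in PBS, 80.2 ± 4.29 with wild-type exosomes and 68.9 ± 2.69 with ApoE-deficient exosomes (edgeR adjusted p = 0.132 between the exosomes). The summed level of the 42 genes was 1052 to 1134 CPM in PBS, 1028 to 1086 with wild-type exosomes and 963 to 1057 with ApoE-deficient exosomes, with overlapping groups.

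Markers of other marrow cells were read as whole lists. Of 12 progenitor markers 5 passed the filter, with a summed level of 22.3 to 27.3 CPM in PBS, 21.6 to 26.6 with wild-type exosomes and 21.6 to 27.8 with ApoE-deficient exosomes. Prtn3 and Ctsg were at 0 in all libraries, Elane had at most 8 counts and Mpo at most 18. Of 10 erythroid markers 2 passed the filter, and the globins, Alas2 and Gata1 were at 0. One of the 2, the transferrin receptor Tfrc, which dividing cells of many types make, was at 44.1 ± 1.35 CPM in PBS. It rose to 53.0 ± 3.32 with wild-type exosomes (0.27, edgeR adjusted p = 0.0311), where 1.93% of all genes passed as higher. With ApoE-deficient exosomes it was 52.1 ± 0.557 (0.24, edgeR adjusted p = 0.0570). The other, Epor, did not pass with edgeR, and its log2 fold changes against PBS were -0.17 and -0.45 in the same order. Of 10 neutrophil markers 7 passed the filter, with a summed level, most of it Csf3r, of 203 to 209 CPM in PBS, 199 to 209 with wild-type exosomes and 178 to 191 with ApoE-deficient exosomes, where all libraries lay below those of both other groups. The median log2 fold change of these 7 genes was -1.09 for ApoE-deficient exosomes against PBS, and with edgeR none passed and 1 reached an unadjusted p under 0.05, DESeq2 passed none and limma-voom passed Ngp and S100a9. Of 9 dendritic cell markers 3 passed the filter, and the 6 others had at most 15 counts in a library. The summed level of the 3, most of it Irf8, was 333 to 354 CPM in PBS. That was above the 323 to 325 with wild-type exosomes and the 316 to 327 with ApoE-deficient exosomes. None of the 3 passed with edgeR, and against PBS 1 was higher and 2 were lower with each kind of exosome. The positive log2 fold changes were 0.55 with wild-type and 1.04 with ApoE-deficient exosomes. Of 9 stromal and endothelial markers 7 passed the filter, with sums of 22.9, 25.9 and 81.8 CPM in PBS, 36.1 to 47.3 with wild-type exosomes and 20.1 to 40.95 with ApoE-deficient exosomes, PBS replicate 3 being the highest. Markers of B cells, T and NK cells, mast cells and megakaryocytes summed to at most 8.59 CPM a list in a library. The part of these cells in the differences above was not tested.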

How the data were processed

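RNA of 9 macrophage libraries, 3 in each of 3 groups, was sequenced after an mRNA library kit, per the labels' protocols. The deposited table holds raw read counts per Ensembl gene. Per the submitters' processing notes, STAR 2.7.5c and GRCm38 were used. For the counting, the annotation release, trimming and strand setting were not given in the sources used here. No row held totals or unassigned reads. All 55536 IDs matched GENCODE M21, from which exon lengths, positions and exon overlap were taken.

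From these counts, edgeR 4.0.16 in R 4.3.3 (filterByExpr, minimum count 10, TMM factors) fitted 1 robust quasi-likelihood model to all 9 libraries. Contrasts and an F test were adjusted by Benjamini-Hochberg over 13815 genes, with a threshold of 0.05. "Adjusted p" means this value unless another tool is named. The common biological coefficient of variation was 12%. With 3 against 3, an exact permutation test cannot go below p = 0.1, and none is given. CPM are TMM-normalised. RPKM divides them by merged exon length. Scores are means of log2 CPM (prior count 2) centred on each gene.

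Library pairs compared by chi-square per gene gave 6.81 to 10.2 in the same group and 7.76 to 18.6 across groups, so none was counted as 1 sample. The pipeline was tested on simulated data. Alternatives were DESeq2 1.42.0 size factors and test, limma-voom (3.58.1), no filter, 2 groups only, each library left out, and replicate number as a block.

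The members and lists were chosen with earlier results of these data known. Values in every library are given for members past the threshold in any comparison or the F test, for Pcna, Mcm2, Mcm5, Rrm2, Tyms and Tk1 as S-phase markers, and for the member of each role with the lowest F test p. Rfc5 was added after its values were seen. From other lists, genes past the threshold or among the 4 lowest F test p could be named, and 1 that passed is not reported here. Intervals on promoter shares cover counting error only.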

Additional observations from a re-analysis of the deposited data

How the results depend on the processing

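Pcna passed the threshold against PBS under every alternative run, in 15 of 15 for each kind of exosome (adjusted p 3.06e-05 to 0.00752 for ApoE-deficient and 1.49e-07 to 0.00132 for wild-type exosomes). No result turned its direction while past the threshold. Leaving out 1 library at a time moved the number of the 45 genes that passed to 1 to 3 for ApoE-deficient exosomes against PBS, 1 to 3 for wild-type exosomes against PBS, 0 to 2 between the exosomes and 2 to 6 in the F test, and the number of all genes that passed to 421 to 586, 408 to 536, 52 to 109 and 538 to 708. Where a library was left out, its arm held 2 libraries and the spread was pooled over all groups. Between the exosomes, DESeq2 passed 150 of all genes in place of 96, and 2 of the 45 genes passed in place of 1 with DESeq2, without a filter and with only the 2 groups in the fit. DESeq2 gave an adjusted p to 39, 32, 35 and 44 of the 45 genes in these 4 tests and left the rest without one. The median residual correlation among the 45 genes lay between 0.0179 and 0.0564 when a library was left out. Replicate numbers recur in all groups, but no label says that a number marks a shared mouse or day, and residual correlations of same-numbered libraries (-0.0350 to 0.0402, 9 pairs) were like those of other pairs (-0.0483 to 0.0385, 18 pairs). With the replicate number as a block, 2, 4, 2 and 6 of the 45 genes passed in these 4 tests (Mcm2 with wild-type exosomes and Rrm2 between the exosomes in addition), and 662, 669, 144 and 806 of all genes. Depth limits Orc1, Cdc6, Rfc4, Rpa3 and Tyms, which had at most 187 counts in a library. Differences of the size seen for Pcna were not detectable there. Power was limited in further genes too. For ApoE-deficient exosomes against PBS the SE of the log2 difference was 0.050 for Pcna and 0.13 for Rrm2. It was 0.16 for Gins2 and Rfc3 and 0.24 for Cdc45. In Rrm2 a difference of -0.26 had an edgeR adjusted p of 0.397.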
